A study of Mus musculus with 5 samples.

Results

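Acyl-CoA thioesterases are the enzymes that cut the bond between a fatty acid and coenzyme A. The 7 genes described here, Acot1, Acot2, Acot3, Acot4, Acot8, Acot12 and Acot13, were read from the 32285 genes of a single-cell RNA sequencing count matrix of mouse hepatocytes sampled fed and after 4, 8, 16 and 24 h of fasting. In the 24 h library 5 of the 7 genes stood at least 2-fold above the fed library, where 4.73% of all genes tested did, led by Acot3 at 17.5-fold and Acot1 at 11.3-fold. Their courses differed: Acot1 was already 15.6-fold above fed at 4 h, whereas Acot3 passed 2-fold at 16 h and reached its highest level at 24 h. The group was chosen by the measured 24 h ratio of Acot3, the largest among genes with at least 50 CPM in either library, so the 24 h values are a description and support nothing. CPM are the UMI counts of a gene per 1000000 counts of all non-mitochondrial genes. Among the 7356 genes with at least 10 CPM in either library the 24 h ratio of Acot3, 4.13 on the log2 scale, ranked 2. Above it stood Cyp2b9 with a log2 ratio of 6.69, from 0.132 CPM to 13.7 CPM, and just below it Nlrp12 with 3.93, from 5.56 CPM to 84.6 CPM.

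All animals were male wild-type C57BL/6J mice on Normal Chow. For 3 days they had been adapted to 16 h without food overnight and 8 h of daytime feeding. On the last day they received chow and water with 20% sucrose. The fed library (0 h) was taken at clock hour 13 after 4 h of this feeding, and the fasted libraries were taken at clock hours 17, 21, 5 and 13, so that only the 24 h and fed libraries share an hour of day and fasting time and clock hour cannot be told apart at the other times. Each time point was 1 library of isolated hepatocytes, and the number of animals behind a library is not given in the sources used here. No test across animals was therefore possible. Every interval given is an exact 95% interval that covers counting error only, and all ratios to fed share the same fed library.

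As background, thioesterases set free fatty acid and coenzyme A inside the cytosol, the mitochondrion or the peroxisome, and so act against the acyl-CoA synthetases that join them. Several are known target genes of PPARA, the fatty-acid-activated nuclear receptor that turns on fat oxidation in the fasted liver. Acot1 is the cytosolic, Acot2 the mitochondrial, and Acot3 and Acot4 the peroxisomal products of a gene cluster that arose by duplication. Acot3 prefers long-chain acyl-CoA, and Acot4 acts on succinyl-CoA and other dicarboxylic acyl-CoA. Acot8 is a peroxisomal thioesterase of unrelated structure. Acot12 is a cytosolic acetyl-CoA hydrolase, and Acot13 (also Them2) is a small thioesterase of long-chain acyl-CoA linked to mitochondria.

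The members with the 4 highest 24 h ratios, Acot3, Acot1, Acot2 and Acot4, are neighbours in the genome, in a cluster that goes on with Acot5 and Acot6. In the hepatocytes of any library Acot5 had at most 1 UMI and Acot6 at most 0.656 CPM. In the GENCODE annotation of GRCm38, Acot2 (chromosome 12, 83987861 to 83993873), Acot1 (84009490 to 84018371), Acot4 (84038379 to 84048601) and Acot3 (84052144 to 84060402) lie on the plus strand within 72.5 kb. Acot8 lies on chromosome 2 (164792765 to 164804882, minus strand), Acot12 on chromosome 13 (91741512 to 91786148, plus strand) and Acot13 on chromosome 13 (24817948 to 24831540, minus strand). The coding sequences of Acot1 and Acot2 matched at 95.3% of aligned bases, those of Acot1 and Acot3 at 83.9% and those of Acot3 and Acot4 at 74.2%. Because reads of this chemistry come from transcript ends, the last 500 bases of each transcript were cut into windows of 91 bases: 2.93% of the Acot1 windows also occurred in Acot2 and 0.12% of the Acot4 windows in Acot6, while no window of Acot2, Acot3, Acot8, Acot12 or Acot13 occurred in another gene of the annotation. Acot3 and Acot4 overlap the antisense gene 4732463B04Rik, Acot8 overlaps Snx21 on the opposite strand and Acot12 the antisense gene 4833422C13Rik. Acot3 and Acot4 also overlap the protein-coding gene Gm49366 on their own strand, which is not analysed here and shares none of these windows. Whether the counting used strand, and how it treated reads that overlapping genes share, is not given in the sources used here, so the counts of these 4 members are uncertain to that extent.

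The 250 bases before the start site are shown for these 4 neighbours and for Acot12, the 5 genes that stood at least 2-fold above fed at 24 h. They are RefSeq sequence on GRCm38.p6, all plus strand, at chr12:84009252-84009501 for Acot1, chr12:83987611-83987860 for Acot2, chr12:84051894-84052143 for Acot3, chr12:84038129-84038378 for Acot4 and chr13:91741271-91741520 for Acot12. Capitals mark AGGTCA read on either strand (TGACCT), the half-site of nuclear receptors such as PPARA.
Acot1: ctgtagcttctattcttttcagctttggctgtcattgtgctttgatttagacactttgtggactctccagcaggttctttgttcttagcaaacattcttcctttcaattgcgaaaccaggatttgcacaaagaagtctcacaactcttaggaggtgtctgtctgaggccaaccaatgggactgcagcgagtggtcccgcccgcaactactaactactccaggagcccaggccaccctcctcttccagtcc
Acot2: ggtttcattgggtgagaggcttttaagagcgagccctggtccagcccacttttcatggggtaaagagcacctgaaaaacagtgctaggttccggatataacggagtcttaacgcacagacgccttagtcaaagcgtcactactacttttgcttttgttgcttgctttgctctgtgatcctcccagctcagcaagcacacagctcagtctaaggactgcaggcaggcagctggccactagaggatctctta
Acot3: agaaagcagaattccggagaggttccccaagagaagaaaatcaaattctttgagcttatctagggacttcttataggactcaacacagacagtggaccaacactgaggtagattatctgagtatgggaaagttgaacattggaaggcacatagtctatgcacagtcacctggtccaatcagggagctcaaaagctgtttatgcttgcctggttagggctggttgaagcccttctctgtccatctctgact
Acot4: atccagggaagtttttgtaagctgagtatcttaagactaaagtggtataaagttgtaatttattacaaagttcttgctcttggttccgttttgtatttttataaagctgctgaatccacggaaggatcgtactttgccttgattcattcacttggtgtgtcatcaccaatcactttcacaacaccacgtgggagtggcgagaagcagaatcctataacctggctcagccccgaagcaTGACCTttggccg
Acot12: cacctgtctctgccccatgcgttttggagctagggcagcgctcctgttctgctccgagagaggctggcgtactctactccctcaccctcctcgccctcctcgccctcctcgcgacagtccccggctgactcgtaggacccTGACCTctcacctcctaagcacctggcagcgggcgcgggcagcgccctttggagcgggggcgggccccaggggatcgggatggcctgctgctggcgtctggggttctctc
The half-site occurred in Acot4, at bases -13 to -8 from the start, and in Acot12, at -110 to -105, both on the minus strand. Of 32851 promoter windows of the same length 4607 held it. In Acot4 it was part of the longer CAAAGGTCA, which overlaps the half-site and was held by 0.426% of the windows. The direct repeat of AGGTCA with 1 base of any kind between the copies, held by 0.0335% of the windows, was in none of the 6 members with a promoter entry, and Acot13 had no entry. A match or its lack describes these letters in these windows only.

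Each library held 10000 barcodes, of which 2716 to 9125 counted as hepatocytes by 3 limits: at least 1000 unique molecular identifiers (UMIs, each counting 1 RNA molecule), at least 500 genes, and 2 to 30% of UMIs from mitochondrial genes. Levels are CPM over the summed UMIs of the hepatocytes of a library. The sums held 33521626 to 45532684 such UMIs, and median UMIs per hepatocyte ran from 4391 at 16 h to 15005 at 8 h. All 7 hepatocyte markers, among them albumin, exceeded 1000 CPM in every library. The 7 endothelial markers summed to 11.2 to 70.7 CPM, the 6 Kupffer cell markers to 0.118 to 32.5 CPM and the 5 stellate cell markers to 1.34 to 26.4 CPM, highest in the fed library in each case. The 5 cholangiocyte markers, nearly all Sox9, summed to 17.2 to 70.3 CPM, highest at 16 h, and the 5 erythroid markers to 24.5 to 67.0 CPM. The highest erythroid sum, at 8 h, was Alas2 alone with the other 4 markers at 0, whereas at 24 h Alas2 made up 20.6 of 35.3 CPM. Libraries stood apart in the barcodes left out. Barcodes under 2% mitochondrial UMIs numbered 5345 at 4 h and 5400 at 24 h but 2172, 576 and 234 at 0, 8 and 16 h, and at 8 h 6675 barcodes were too shallow. Between 99 and 110 barcode sequences of each library also occurred in another library.

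**Figure D1:**
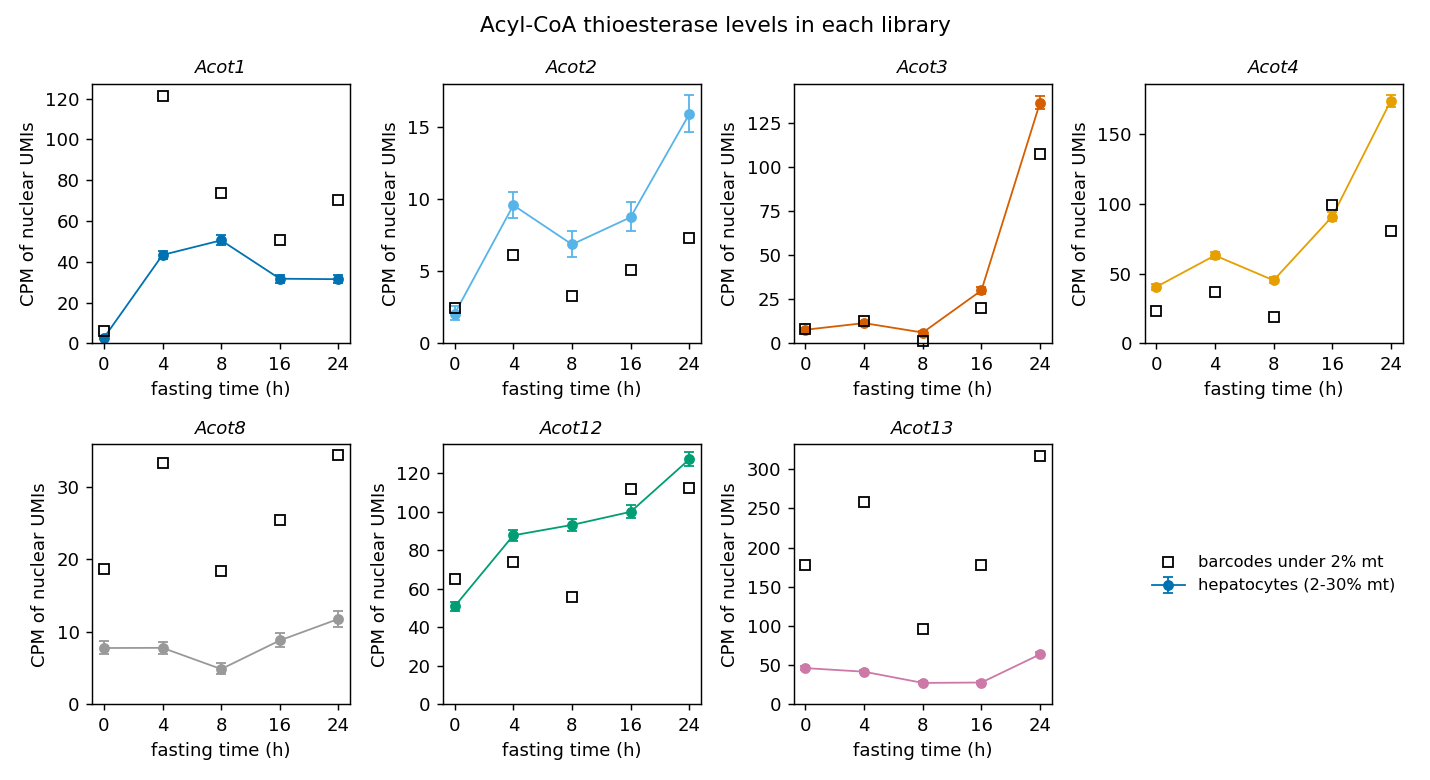
Level of each thioesterase gene in the 5 libraries, in CPM of non-mitochondrial UMIs on a linear axis from 0, against fasting time in hours (equally spaced ticks). Coloured circles are hepatocytes with exact 95% counting intervals, and open squares are the barcodes under 2% mitochondrial UMIs that were left out. Acot3 stands at 136.8 CPM at 24 h and at 6.21 to 30.1 CPM elsewhere, and the squares of Acot13 lie above its circles in all 5 libraries.

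Acot1, the cytosolic enzyme, had a level of 2.78 CPM fed (95% interval 2.27 to 3.36), and of 43.4, 50.6, 31.7 and 31.5 CPM after 4, 8, 16 and 24 h of fasting. The intervals of the fasted levels ran from 41.5 to 45.4, 48.2 to 53.0, 29.9 to 33.7 and 29.7 to 33.4 CPM. The fed library was lowest by far, the 8 h library highest, and the 16 and 24 h libraries did not differ beyond their intervals. On the log2 scale these levels exceeded fed by 3.97 (interval 3.68 to 4.26), 4.19, 3.51 and 3.50 (3.21 to 3.81). In the fed library the level rested on 105 UMIs.

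Acot2, the mitochondrial enzyme, had a level of 2.06 CPM fed, 9.58 CPM at 4 h, 6.86 CPM at 8 h, 8.74 CPM at 16 h and 15.9 CPM at 24 h (14.6 to 17.2). The fed library was again lowest and the 24 h library highest, and the 16 h interval overlapped those of 4 and 8 h. At 24 h the log2 ratio to fed was 2.94 (2.60 to 3.30), a 7.70-fold difference. At 4, 8 and 16 h the ratios were 2.21, 1.73 and 2.08, but both libraries were below 10 CPM, the minimum set for a call.

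Acot3, the peroxisomal long-chain enzyme, had a level of 7.81 CPM fed (6.94 to 8.75), and of 11.6, 6.21, 30.1 and 136.8 CPM after 4, 8, 16 and 24 h of fasting. The intervals of the fasted levels ran from 10.6 to 12.6, 5.40 to 7.11, 28.3 to 32.0 and 133.1 to 140.6 CPM. The 8 h and fed libraries were lowest, with overlapping intervals, and the 24 h library stood alone. In time order the log2 ratios to fed came to 0.57, -0.33, 1.95 (interval 1.76 to 2.14) and 4.13 (3.96 to 4.31). Between neighbouring times the log2 ratio was 2.28 from 8 to 16 h and 2.18 from 16 to 24 h, so that most of the distance to the 24 h level was covered after 8 h.

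Acot4, the peroxisomal dicarboxylic enzyme next to Acot3, had a level of 40.5 CPM fed, 63.1 CPM at 4 h, 45.3 CPM at 8 h, 90.9 CPM at 16 h and 174 CPM at 24 h. The order of the libraries was that of Acot3 with fed and 8 h exchanged, and no neighbouring intervals in that order overlapped. In time order its log2 ratios to fed came to 0.64, 0.16, 1.17 (1.08 to 1.25) and 2.10 (2.02 to 2.18). Acot3 and Acot4 were the members with a 2-fold higher level at 16 h than at 8 h, a step at which 10.5% of 7367 genes were called higher and 7.25% lower.

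Acot8, the other peroxisomal enzyme, had a level of 7.75 CPM fed, 7.77 CPM at 4 h, 4.85 CPM at 8 h, 8.80 CPM at 16 h and 11.8 CPM at 24 h. The fed, 4 h and 16 h intervals overlapped. Its 24 h log2 ratio to fed was 0.60 (0.38 to 0.82) and did not reach 2-fold. With barcodes of 0 to 30% mitochondrial UMIs in place of 2 to 30% this ratio was 1.13, past 2-fold. With 2 to 15% the 4 h level was 15.5 against 7.70 CPM fed, a log2 ratio of 1.01 in place of 0.00 and likewise past 2-fold.

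Acot12, the cytosolic acetyl-CoA hydrolase, had a level of 50.8 CPM fed, 87.7 CPM at 4 h, 93.1 CPM at 8 h, 99.9 CPM at 16 h and 127 CPM at 24 h. Fed was lowest and 24 h highest, and the intervals of 4 and 8 h overlapped. Its log2 ratios to fed of 0.79, 0.87 and 0.97 at 4, 8 and 16 h fell short of 2-fold, and that of 24 h was 1.32 (1.25 to 1.40). With TMM scaling (trimmed means of log ratios) and with median-of-ratios scaling Acot12 also passed 2-fold at 8 and 16 h.

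Acot13, the small mitochondria-linked enzyme, had a level of 46.1 CPM fed, 41.5 CPM at 4 h, 27.2 CPM at 8 h, 27.7 CPM at 16 h and 63.7 CPM at 24 h. It was lowest at 8 and 16 h, where the intervals overlapped, and highest at 24 h. None of its log2 ratios to fed, -0.15, -0.76, -0.73 and 0.47 in time order, passed 2-fold, while the 24 h level was 2.30-fold that of 16 h. In barcodes of 2 to 15% mitochondrial UMIs the sign at 4 h was the opposite, with a log2 ratio of 1.05, past 2-fold. The 24 h ratio to fed was 1.17 in barcodes of 2 to 15% mitochondrial UMIs, 1.33 in those of 0 to 30% and 0.27 in those with at least 3000 UMIs.

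At 4 h 1 member, Acot1, was at least 2-fold higher than fed, of 5 members past the minimum, where 3.67% of 7299 genes were called higher and 6.04% lower. At 8 h Acot1 was again the 1 member called, of 4 past the minimum, where 5.68% of genes were higher and 11.2% lower. At 16 h 3 members, Acot1, Acot3 and Acot4, were called of 5, where 2.87% of genes were higher and 3.6% lower. At 24 h, the contrast that chose the group, 5 of 7 were called, where 4.73% of genes were higher and 8.77% lower. No member was called lower at any time. Acot1, Acot2, Acot3 and Acot8 were below 10 CPM fed, so they passed the minimum only through the fasted library. They could not be called lower than fed, and the counts of members called thus follow partly from the minimum. The median log2 ratio of all 7 members, those below the minimum included, was 0.64, 0.16, 1.17 and 2.10. Over all genes past the minimum it was -0.09, -0.08, -0.02 and -0.10. Between neighbouring times no member was called from 4 to 8 h (1.12% of genes higher, 2.06% lower), and Acot3 and Acot13 were called higher from 16 to 24 h (5.19% of genes higher, 5.78% lower).

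**Figure D2:**
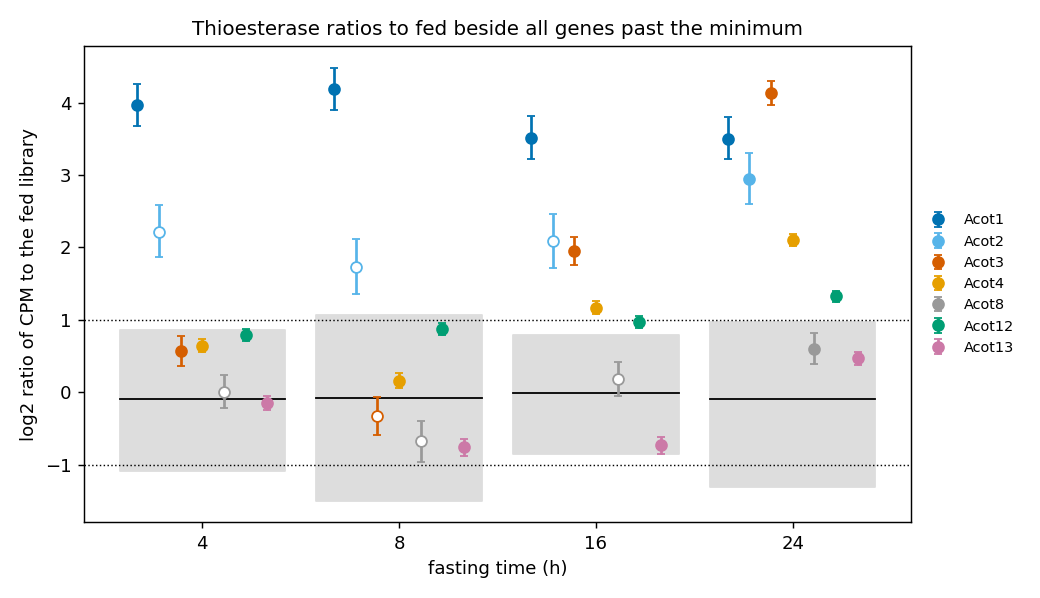
Log2 ratio of CPM to the fed library for the 7 genes at 4, 8, 16 and 24 h, with 95% counting intervals. Grey boxes span the middle 90% of all genes with at least 10 CPM in either library, black lines are their medians, dotted lines are 2-fold, and open circles are members below that minimum. Acot1 lies above the box at every time, whereas Acot3 lies inside it at 4 h and above it at 16 and 24 h.

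Hepatocytes differ along the liver lobule, from the portal side, marked by Cyp2f2, to the central vein, marked by Cyp2e1. Within each library the hepatocytes were ranked by the 2 markers and split into 3 equal parts, called the Cyp2f2 side, the middle and the Cyp2e1 side, which are ranges of a score and not places in tissue. Acot1 was higher on the Cyp2e1 side in all 5 libraries. Its level on the Cyp2f2 side and on the Cyp2e1 side was 1.55 and 5.06 CPM fed, 20.8 and 106 CPM at 4 h, 36.7 and 81.9 CPM at 8 h, 11.9 and 73.5 CPM at 16 h, and 24.2 and 60.9 CPM at 24 h. The middle part lay between the sides in every library, at 2.47, 34.7, 41.5, 13.8 and 25.0 CPM in time order. The log2 ratio of the Cyp2f2 side to the Cyp2e1 side was -1.71, -2.34, -1.16, -2.63 and -1.33, and kept its sign in the 7 alternative settings tried.

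Acot2 was likewise higher on the Cyp2e1 side at 4 h, with 6.31 against 20.1 CPM, and at 16 h, with 5.48 against 16.5 CPM, but at 24 h the parts held 15.9, 15.6 and 16.4 CPM and did not differ beyond counting error. Acot3 had 5.68 against 13.2 CPM in the fed library and 27.7 against 36.3 CPM at 16 h. At 8 h the sides did not differ beyond counting error for Acot3, with 5.63 against 5.57 CPM, for Acot2, with 7.77 against 8.36 CPM, or for Acot4, with 45.6 against 46.4 CPM. At 24 h Acot3 stood at 137 CPM on the Cyp2f2 side, 135 CPM in the middle and 140 CPM on the Cyp2e1 side. The 24 h log2 ratio of Acot3 to fed was thus 4.59 (interval 4.26 to 4.94) on the Cyp2f2 side, 4.41 in the middle and 3.40 (3.13 to 3.68) on the Cyp2e1 side. The sides were ranked within each library, so a side at 24 h need not match the same side fed. Over all genes past the minimum the median log2 ratio of the Cyp2f2 to the Cyp2e1 side was -0.07 fed and 0.17 at 24 h. Acot4 was higher on the Cyp2e1 side at 0, 4 and 16 h, with log2 ratios of -0.43, -0.44 and -0.41. At 24 h its sign was the opposite, with 183 CPM on the Cyp2f2 side against 146 CPM, but with at least 3000 UMIs the sides held 178 and 179 CPM. Acot12 had small differences, with log2 ratios between -0.30 and 0.07. In barcodes of 2 to 15% mitochondrial UMIs the 24 h log2 ratios lay towards the Cyp2f2 side, at 1.24 for Acot2, 0.58 for Acot3, 1.13 for Acot4 and 0.55 for Acot12, and that of Acot4 at 4 h was 0.17. In the same barcodes the other 4 h ratios of the cluster were smaller in size than in all hepatocytes, at -1.34 for Acot1, -0.75 for Acot2 and -0.07 for Acot3 in place of -2.34, -1.67 and -0.98.

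Acot8 and Acot13 had their largest differences along the axis at 24 h. Acot13 stood at 38.4 CPM on the Cyp2f2 side, 51.2 CPM in the middle and 143 CPM on the Cyp2e1 side, and Acot8 at 9.13, 9.63 and 21.9 CPM. With at least 3000 UMIs the log2 ratios moved from -1.90 to -1.09 for Acot13 and from -1.26 to -0.89 for Acot8. Counted over the members past the minimum, 5 of 5, 6 of 6, 1 of 4, 5 of 6 and 3 of 7 were at least 1.2-fold higher on the Cyp2e1 side at 0, 4, 8, 16 and 24 h, where 22.1%, 21.6%, 16.2%, 23.2% and 22.9% of genes were so called. With at least 3000 UMIs the fed count was 3 in place of 5. Only the Cyp2e1 side brought Acot3 and Acot8 past the minimum fed, and Acot2 and Acot3 at 4 h. The same held for Acot2 at 16 h and Acot8 at 24 h, so these counts follow partly from the minimum. On the Cyp2f2 side the count was 0 of 5, 0 of 6, 0 of 4 and 0 of 6 at 0 to 16 h, with 8.4%, 15.1%, 8.71% and 8.2% of genes called, and 1 of 7, Acot4, at 24 h, with 40.6% called.

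Depth moved with the axis. Median UMIs per cell on the Cyp2f2 and Cyp2e1 sides were 5854 and 2901 fed, 18686 and 3034.5 at 4 h, 15535 and 11042 at 8 h, 4318.5 and 3879 at 16 h, and 11217.5 and 2962 at 24 h. The median mitochondrial share was 18.4% on the Cyp2f2 side and 10.8% on the Cyp2e1 side at 24 h. The axis was also weaker at 24 h. Glul, a gene of the cells next to the central vein, was higher on the Cyp2e1 side at 0, 4, 8 and 16 h (at 16 h 253 against 29.4 CPM) but not at 24 h (45.2 against 54.2 CPM), and median Cyp2e1 on the Cyp2e1 side at 24 h was 4.47 per 10000 UMIs against 59.5 at 16 h. The part of depth in these differences was not tested beyond the setting of at least 3000 UMIs.

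**Figure D3:**
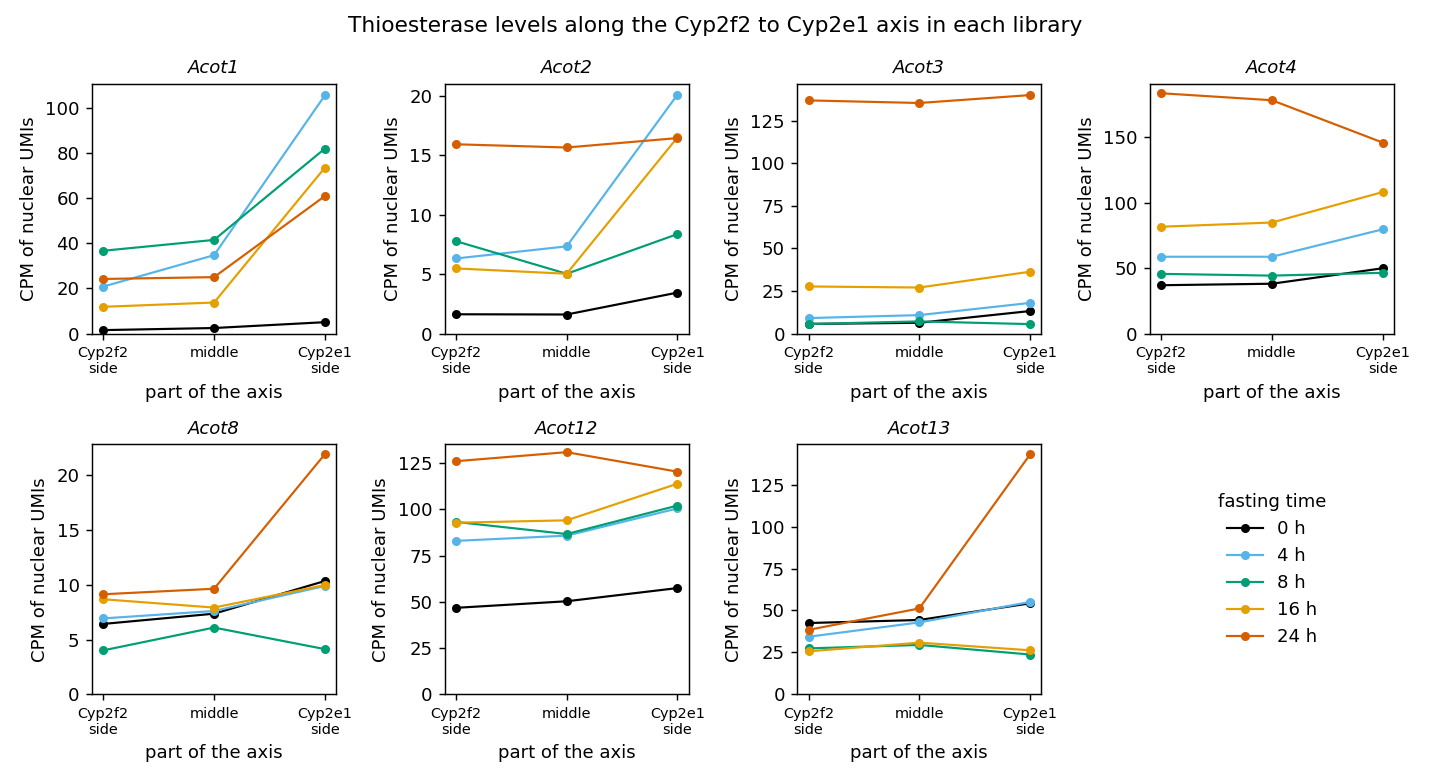
Level of each gene, in CPM of non-mitochondrial UMIs from 0, in the 3 equal parts of the hepatocytes ranked from Cyp2f2 to Cyp2e1, with 1 line for each fasting time. Acot1 climbs to the Cyp2e1 side in every library, Acot3 at 24 h is level at 135 to 140 CPM, and Acot13 at 24 h reaches 143 CPM on the Cyp2e1 side.

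Depth and mitochondrial share also divided the members within a library. At 24 h the shallower part of the hepatocytes, at or below the median of 7201.5 non-mitochondrial UMIs, had 130 CPM of Acot13 and the deeper part 46.2 CPM. Acot4 went the other way, with 105 against 192 CPM, while Acot1 had 33.6 against 30.9 CPM and Acot3 109 against 144 CPM. In the fed library the same division gave 51.0 against 44.2 CPM for Acot13 and 36.4 against 42.2 CPM for Acot4. At 4 h the shallower part was higher in Acot1, with 62.9 against 39.4 CPM, in Acot2, with 13.2 against 8.83 CPM, and in Acot13, with 67.5 against 36.2 CPM. At 8 and 16 h Acot13 lay the other way, with 23.1 against 28.9 CPM and 25.5 against 28.8 CPM, as did Acot1 at 16 h, with 26.7 against 34.2 CPM. Barcodes under 2% mitochondrial UMIs, which are left out of all values above, held Acot13 at 177, 258, 95.5, 178 and 317 CPM at 0, 4, 8, 16 and 24 h, above the hepatocyte level in every library. The same held for Acot8, at 18.3 to 34.3 CPM, and for Acot1, at 6.21, 121, 73.9, 50.8 and 70.2 CPM. At 8 and 16 h these levels rest on few UMIs, 28 and 10 for Acot8 and 113 and 20 for Acot1. The fed level of Acot1 in these barcodes rests on 25 UMIs. Acot2, by contrast, was lower in these barcodes than in hepatocytes at 4 h, with 6.12 against 9.58 CPM, and at 24 h, with 7.34 against 15.9 CPM. In the fed library it had 2.49 against 2.06 CPM, on 10 UMIs in these barcodes. At 8 and 16 h it had 5 and 2 UMIs there, too few to compare. Acot3 at 24 h was at 107 against 136.8 CPM. In both kinds of barcode every fasted library thus exceeded the fed library in Acot1. What these barcodes are was not tested.

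To compare shares of cells across depths, each hepatocyte with fewer than 3 of the 7 endothelial markers was thinned to 1000 non-mitochondrial UMIs. Cells with fewer such UMIs were left out, at most 117 in a library, at 16 h. The share with at least 1 Acot3 UMI was 0.876% of 7650 cells fed (interval 0.679 to 1.11%), 1.16% at 4 h, 0.597% at 8 h, 3.04% at 16 h and 11.6% of 4542 cells at 24 h (10.7 to 12.6%). Unthinned, the fed and 24 h shares were 3.56% and 50.6%. Acot1 was found in 0.340%, 5.07%, 4.40%, 2.94% and 2.77% of thinned cells in time order, and Acot4 in 3.66%, 5.23%, 4.51%, 8.55% and 12.2%. As a measure of free RNA, barcodes with UMIs of at least 3 of the 7 endothelial markers were counted apart. In the fed library 0 of 290 such barcodes held Acot3 after thinning, which allows a share of up to 1.03% at the floor of 3 counts and 1.26% by the exact interval. At 24 h 5 of 45 did, 11.1% (3.71 to 24.1%), about the share of the hepatocytes, and 4 of 45 held Acot4. Acot1 was held by 1 of 290 of these barcodes fed, 0.345% (0.009 to 1.91%), and by 1 of 65 at 16 h, 1.54% (0.04 to 8.28%). At 24 h 2 of 45 held it, 4.44% (0.54 to 15.1%). These intervals held its shares in hepatocytes. At 4, 8 and 16 h 9, 19 and 65 such barcodes could be thinned, and none held Acot3, but at 4 and 8 h a count of 0 allows shares of up to 33.3% and 15.8%. The shares of these members are therefore not read as shares of expressing cells at any time. Median non-mitochondrial UMIs were 7237.5 in the hepatocytes and 3479 in these 45 barcodes, which also held albumin at 43172 CPM against 78449 CPM, and 34 of them lay inside the hepatocyte limits.

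Detection of Acot3 was also split by the other members, here over all thinned hepatocytes, those with endothelial markers included. At 24 h, after thinning, an Acot3 UMI was found in 17.1% (14.1 to 20.5%) of 560 cells with Acot4 and 10.9% (9.96 to 11.9%) of 4016 cells without it. With Acot12 the share was 17.0%, against 451 of 4087 cells without it. With and without the partner the shares were 18.1% (11.8 to 25.9%) and 11.5% for Acot1, and 26.5% (14.9 to 41.1%, 13 of 49 cells) and 11.5% for Acot2. For Acot8 they were 7.35% (2.43 to 16.3%, 5 of 68 cells) and 11.7%, and for Acot13 9.28% (6.74 to 12.4%) and 11.9%. At 16 h they were 2.74% and 3.05% for Acot4 and 2.86% and 3.04% for Acot12. For each partner at 16 h the interval with it held the share without it. At the other times fewer cells held Acot3, and those splits are not given. Cells of 1 library are not replicates, and these shares are given without a test.

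None of the other 6 Acot genes of the matrix was called at any time, but only Acot7 passed the minimum of 10 CPM and could be called. Acot7, a cytosolic enzyme best known from brain, had levels of 22.2, 17.0, 23.2, 13.7 and 15.8 CPM in time order. Acot11 stayed below 10 CPM in all libraries, with 8.26 CPM fed and 1.25 CPM at 16 h. Acot6 and Acot9 were below 1.5 CPM, and Acot5 had 1 UMI in the hepatocytes of all libraries. Acot10 had 0 UMIs, which at the floor of 3 counts allows 0.0895 CPM, and by the exact interval 0.110 CPM, in the shallowest library. The list of 12 thioesterases and related acyltransferases outside the members had 5, 4, 5 and 4 genes past the minimum at 4, 8, 16 and 24 h, of which none was called in either direction, and a 24 h median log2 ratio of -0.04. Among the 4 genes past the minimum at 24 h, Baat, the acyltransferase that conjugates bile acids, was at 230 CPM fed and 227 CPM at 24 h, with a log2 ratio of -0.02, the highest of the 4, followed by Acnat2 with -0.03 and, lowest, Acot7 with -0.49.

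Genes that make acyl-CoA, which oppose the thioesterases, were called higher in 0 of 10 genes past the minimum at each of the 4 times and lower in 1, 2, 0 and 2. At 24 h those lower were Acsl3 and Acsl4, the latter with a log2 ratio of -1.59, while Acsm3 had 0.90 and Acsl1, the main long-chain synthetase of liver, 0.63. The median of this list was 0.02 at 24 h. Of 23 genes of peroxisomal oxidation and CoA handling 2, 2, 5 and 5 were called higher and 1, 2, 0 and 1 lower at 4, 8, 16 and 24 h, with median log2 ratios of 0.12, 0.08, 0.40 and 0.64. At 24 h the highest were Abcd2, a peroxisomal fatty acid transporter, with 1.52, and Crat, carnitine acetyltransferase, with 1.39. The lowest was Nudt7, the peroxisomal hydrolase that degrades CoA, which went from 637 CPM fed to 295, 209, 335 and 98.6 CPM and had a 24 h log2 ratio of -2.69.

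Of 19 genes of mitochondrial oxidation 0, 0, 2 and 1 were called higher and none lower, with medians of -0.02, 0.07, 0.35 and 0.52. Cpt1a, which admits long-chain acyl groups to the mitochondrion, had 129, 209, 237, 315 and 440 CPM and a 24 h log2 ratio of 1.77, Slc25a20, the carnitine carrier, had 0.97 and Hadha -0.10. Of 20 further known PPARA targets 12, 12, 15 and 13 passed the minimum, and 2, 3, 6 and 4 of them were called higher and 0, 2, 0 and 2 lower. At 24 h Angptl4, an inhibitor of lipoprotein lipase, had 3.86 and Cyp4a14, a fatty acid omega-hydroxylase, 2.18, whereas Cyp4a12a had -2.51. Among 8 regulators 2 were called higher at 24 h, Foxo1 with 1.24 and Ppara itself with 1.23, and the lowest was Nr3c1 with -0.11. Ppara had levels of 57.2, 95.5, 79.4, 95.8 and 134 CPM in time order, lowest fed and highest at 24 h.

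The genes most like a member in course were found by the root mean square distance over the 4 log2 ratios to fed, with 1 CPM added, among 3284 genes outside the members with at least 50 CPM in some library. For Acot3 the nearest were Cpt1a at 1.28, Zfas1 at 1.28, Cyp4a14 at 1.33, Gm33543 at 1.33 and Rab43 at 1.43. On this scale Acot3 itself had 0.51, -0.29, 1.82 and 3.97, and Cpt1a had 0.69, 0.87, 1.28 and 1.76. The genes nearest to Acot1 were Nlrp12 at 0.61, Angptl4 at 0.70, Igfbp1 at 0.88, Rnf125 at 1.03 and Pck1 at 1.29. Angptl4 had 3.67, 5.01, 2.95 and 3.72 at 4, 8, 16 and 24 h, beside 3.55, 3.77, 3.12 and 3.10 for Acot1. All these ratios share the fed library, and the distances are descriptions.

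**Figure D4:**
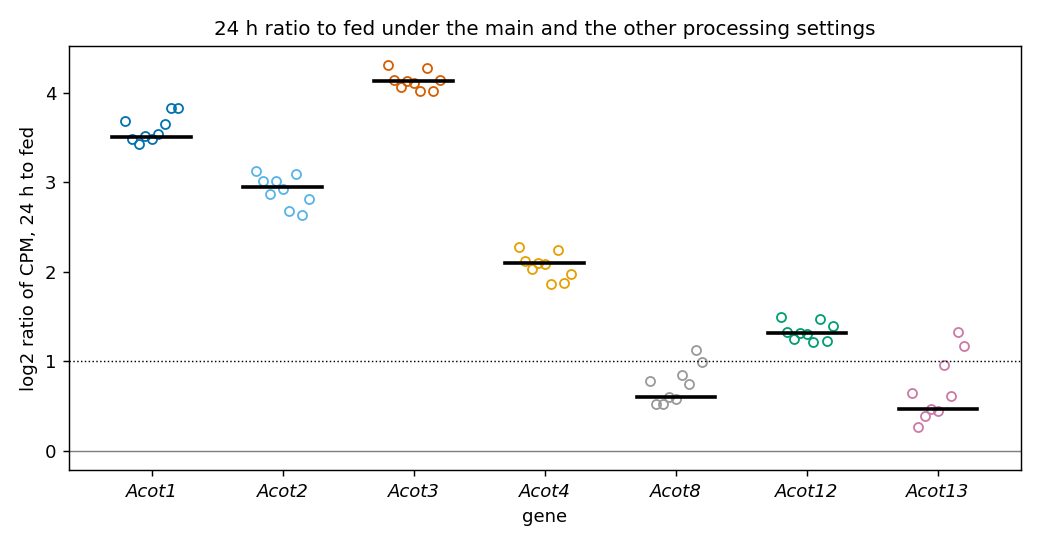
Log2 ratio of 24 h to fed for each gene under the main processing (black bars) and 9 other settings of cell limits, denominator and scaling (open circles), with the dotted line at 2-fold. Acot1, Acot2, Acot3, Acot4 and Acot12 stay above 2-fold in all settings, whereas Acot8 and Acot13 lie on either side of it.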

How the data were processed

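The values are raw UMI counts in 1 matrix of genes by barcodes, which the authors deposited as Cell Ranger 6.0.1 wrote it, as the file headers state. The submitters' processing notes name the build mm10. How reads were aligned and cells called, and with which annotation version, is not given in the sources used here. Each barcode's library was taken from the deposited barcode table, and 0 columns were left unused. Counts of hepatocytes (the limits stand in the report) were summed per library and scaled to CPM of non-mitochondrial UMIs; no doublet caller was run, and barcodes with at least 1% of their UMIs from the markers of another cell type were left out in an alternative. Ratios have exact conditional binomial intervals, levels exact Poisson intervals and shares exact Clopper-Pearson intervals at 95%, computed with Python 3.11.15, numpy 2.4.6, scipy 1.17.1 and pandas 2.3.3 and tested on simulated data. A gene was called at 2-fold with at least 10 CPM in either library. The members, gene lists and the rule for named genes were chosen with earlier results of these data known. The rule named all members, from each list the 2 genes with the highest and the 1 with the lowest 24 h ratio, Ppara, and the 5 genes nearest to Acot3 and to Acot1. Gene models and transcript ends are from GENCODE on GRCm38, and promoters are RefSeq.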

Additional observations from a re-analysis of the deposited data

How the results depend on the processing

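Genes called at 2-fold from fed, in either direction, numbered 709, 1250, 476 and 993 at 4, 8, 16 and 24 h. With a minimum of 50 CPM they numbered 345, 597, 220 and 516, and members called higher became 0 at 4 h, 1 at 16 h and 3 at 24 h. At these 3 times 169 of 2948, 99 of 2994 and 199 of 2980 genes were higher. With no minimum the genes numbered 5787, 6616, 5162 and 6164, and members became 2 at 4 h and 2 at 8 h, where 1606 of 17311 and 1552 of 17100 genes were higher. With 2 to 15% mitochondrial UMIs the 4 h counts were 1249 genes and 3 members, Acot8 and Acot13 added to Acot1. Members became 2 at 4 h without genes over 1% in the denominator, with TMM scaling and with a mean of per-cell CPM, and 2 at 8 h with TMM and with median-of-ratios scaling. Over all genes those called higher moved too: with TMM 437 of 7209 against 268 of 7299 at 4 h and 727 of 7361 against 420 of 7389 at 8 h, with median-of-ratios 642 of 7364 at 8 h, and at 4 h 243 of 7746 without genes over 1%, 247 of 7245 with per-cell means and 347 of 7315 with 2 to 15% mitochondrial UMIs. At 16 h members numbered 4 in place of 3 with no minimum, without genes over 1%, with TMM and with median-of-ratios (1690 of 17279, 225 of 7838, 245 of 7148 and 228 of 7192 genes higher, against 211 of 7355), and at 24 h 6 in place of 5 with 2 to 15% and 7 with 0 to 30% mitochondrial UMIs, where 505 of 7410 and 495 of 7344 genes were higher against 348 of 7356. Along the axis, members higher on the Cyp2e1 side became 2 at 8 h with 0 to 30% mitochondrial UMIs and 3 at 0 h with at least 3000 UMIs, settings for which the share over all genes was not computed. Why these counts moved was not tested, apart from the number of genes that each minimum admits. Scaling moved the balance of all calls: 37.8, 33.6, 44.3 and 35.0% were higher, against 63.0, 57.9, 53.6 and 54.5% with TMM, 55.7, 52.5, 49.9 and 50.8% with median-of-ratios, and 24.4% at 4 h with all UMIs in the denominator. TMM moved the median of all genes from -0.09 to 0.13 at 4 h and from -0.08 to 0.18 at 8 h. Of 28 member ratios to fed 26 kept their sign in the 9 settings that give one, the exceptions being Acot8 (-0.12 to 1.01) and Acot13 (-0.28 to 1.05) at 4 h, and of 35 ratios along the axis 24 kept theirs in 7 settings. With 1 library per time, libraries could not be left out in turn. No paired analysis was possible because each time point has 1 library. Depth limits Acot1, Acot2, Acot3 and Acot8 in the fed library, where they had 105, 78, 295 and 293 UMIs.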
